A study of Homo sapiens with 4 samples.

Results

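The genes described are 4 matrix metalloproteinases (MMP7, MMP9, MMP14 and MMP15), 3 tissue inhibitors of metalloproteinases (TIMP1, TIMP2 and TIMP3) and 3 ADAM proteases (ADAM8, ADAM10 and ADAM17). They were chosen by symbol, and all 10 were found among the 26518 Ensembl genes of the expression table. The study used RNA-seq on MDA-MB-468 cells, a long-established human line of triple-negative breast cancer epithelium, to ask how loss of SASH1, a signalling scaffold protein, changes the transcriptome. The groups were 2 libraries of cells infected with lentivirus carrying a short hairpin RNA against SASH1 (shSASH1) and 2 libraries of cells infected with the pGIPZ control lentivirus (shControl). Both were stable puromycin-selected clones grown in DMEM with fetal bovine serum. The number of hairpins and clones, and any separate cultures behind the 2 libraries, remain not given in the sources used here. The p-values therefore measure only how much these libraries vary, which may be technical.

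Matrix metalloproteinases are zinc-dependent endopeptidases that are made as inactive precursors and cleave matrix proteins and cell-surface proteins. Some are secreted, such as MMP7 and MMP9, and others, such as MMP14 and MMP15, are anchored in the plasma membrane. ADAM10 and ADAM17 are membrane-bound sheddases that release the outer parts of growth factors, receptors and adhesion molecules. TIMPs are small secreted proteins that occupy the active site of these enzymes. In breast tumours these families are known for their parts in invasion, matrix turnover and growth factor release.

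Values are TPM, transcript abundance per gene length scaled to a common total per library. A gene was tested when its mean over the 4 libraries was at least 1 TPM, with limma on log2(TPM + 1), and called at a Benjamini-Hochberg adjusted p under 0.05 over all 14458 genes tested. Log2 changes are shSASH1 minus shControl on that scale, which understates the change of low genes. Of all genes tested, 32.0% were called, 18.8% higher and 13.3% lower in shSASH1. The split depended on the scaling, with 2712 higher and 1918 lower calls here, 2280 and 2434 after quantile normalization, and 2534 and 2812 with limma-voom on read numbers rebuilt from TPM and gene length. Those rebuilt totals came to 24383852 and 19566633 reads for shSASH1 and 20806797 and 24204210 reads for shControl. SASH1 itself had 3.65 and 4.01 TPM in shSASH1, against 15.0 and 13.0 TPM in shControl (log2 change -1.63 ± 0.13 SE, limma adjusted p = 0.00391). The shSASH1 pair was less alike than the shControl pair, with a median SD between replicates of 0.126 log2 units in shSASH1 and 0.0507 in shControl. All 7 breast epithelial markers reached 1 TPM, and they summed to 7680 and 6770 TPM in shSASH1 and 6910 and 7060 TPM in shControl, with EPCAM at 543 and 559 TPM in shSASH1 and 630 and 616 TPM in shControl. EGFR, which is on that list, had 2190 and 2200 TPM in shSASH1, against 1170 and 1070 TPM in shControl (log2 change 0.97, limma adjusted p = 0.00340). The sum therefore hides that every other marker of the list had a lower mean in shSASH1. Their ratios of means ran from 0.728 for CDH1 to 0.944 for KRT18, and none of them was called. Among 7 fibroblast markers COL1A2 and LUM were listed at 0 in every library, and the list summed to 9.42 and 11.4 TPM in shSASH1 and 9.13 and 8.10 TPM in shControl. Most of that sum was COL1A1, at 8.98 and 10.9 TPM in shSASH1 and 7 and 6.32 TPM in shControl. FAP, on the same list, had 0.241 and 0.301 TPM in shSASH1, against 2.01 and 1.76 TPM in shControl (log2 change -1.18). It reached the minimum level only through shControl, so its difference is given as values. The 7 leukocyte markers summed to 44.4 and 102 TPM in shSASH1 and 40.7 and 46.8 TPM in shControl. Most of that was CD14, at 33.3 and 96.5 TPM in shSASH1 and 33.2 and 39.9 TPM in shControl. CSF1R had 10.5 and 4.6 TPM in shSASH1 and 7.08 and 6.7 TPM in shControl. PTPRC stayed at or under 0.104 TPM, and LYZ was listed at 0 in every library. The 5 endothelial markers summed to 4.13 and 3.16 TPM in shSASH1 and 4.06 and 3.65 TPM in shControl.

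Of the 9 metalloproteinase, ADAM and TIMP genes that could be tested, 4 rose in shSASH1 (MMP14, MMP15, TIMP2 and ADAM17) and 1 fell (TIMP1), while MMP7, TIMP3, ADAM8 and ADAM10 were not called. MMP9 missed the minimum level. All 9 averaged at least 1 TPM in both groups. Those 5 calls among 9 genes compare with 32.0% of all genes tested, and the 9 genes had a median log2 change of 0.53, against 0.06 over all genes tested. The libraries of the groups did not overlap for 7 of the 9, a state shared by 73.6% of all genes tested. The 9 genes are few and passed a filter on level, so these shares describe them without setting them apart.

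**Figure D1:**
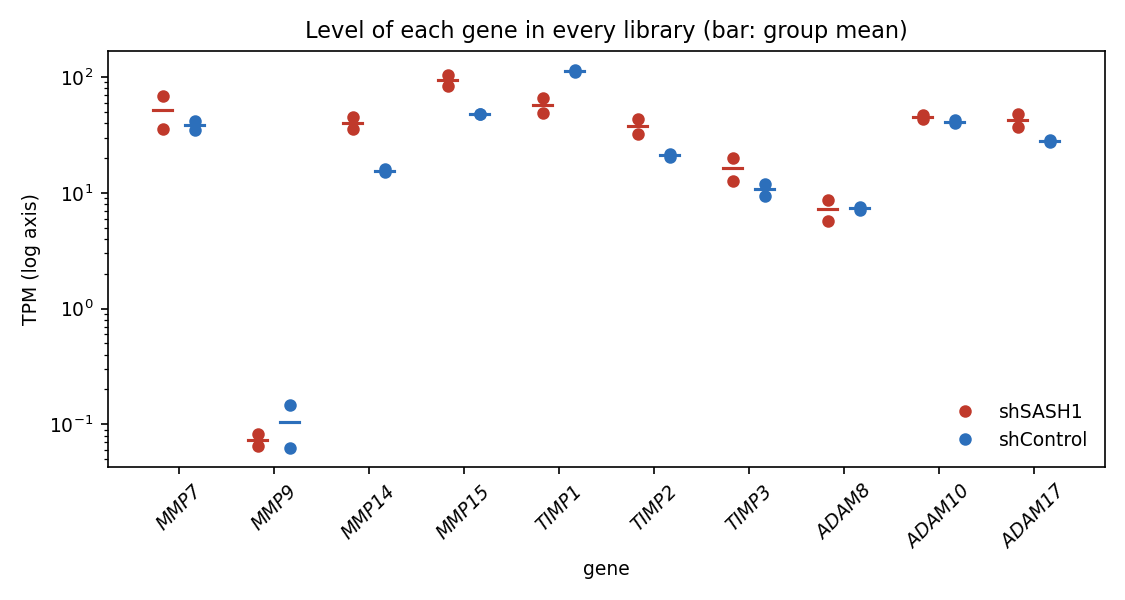
TPM on a log axis for each of the 10 genes, with a point for each library, shSASH1 in red on the left and shControl in blue on the right, and a bar at each group mean. MMP14, MMP15, TIMP2 and ADAM17 lie higher in both shSASH1 libraries, TIMP1 lies lower, and MMP9 is at or under 0.146 TPM in all 4 libraries.

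The stretches just upstream of 4 of these genes are shown first, because MMP14 and MMP15 rose, TIMP1 fell and MMP7 differed between the shSASH1 libraries. They come from the RefSeq promoter table (GRCh38.p14), in which 8 of the 10 genes were matched and MMP9 and TIMP2 were not, and they end at the base before the outermost exon of GENCODE release 29. All are 5′ to 3′ on the strand of the gene, with matches in capitals to the AP-1 motif TGAGTCA (either strand), the GC box GGGCGG (either strand, so CCGCCC as well) and TATAAA (the gene's strand only), overlapping matches included. The MMP14 stretch is chr14:22836457-22836556 on the plus strand, and the MMP15 stretch is chr16:58025504-58025565 on the plus strand. The TIMP1 stretch is chrX:47582213-47582312 on the plus strand, and the MMP7 stretch is chr11:102530754-102530853 on the minus strand.
MMP14: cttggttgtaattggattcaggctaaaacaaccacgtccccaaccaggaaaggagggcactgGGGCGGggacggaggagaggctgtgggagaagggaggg
MMP15: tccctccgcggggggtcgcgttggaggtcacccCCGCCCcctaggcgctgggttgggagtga
TIMP1: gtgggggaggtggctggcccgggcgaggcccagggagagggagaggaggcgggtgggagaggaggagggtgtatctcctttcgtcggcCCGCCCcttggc
MMP7: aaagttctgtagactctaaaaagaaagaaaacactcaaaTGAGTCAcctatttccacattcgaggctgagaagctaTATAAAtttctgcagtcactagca
Over the 250 bases before the RefSeq start, MMP7 held 1 AP-1 match and 1 TATAAA match and no GC box. The other 7 matched genes held GC boxes, from 1 in MMP14 and ADAM10 to 5 in MMP15 and TIMP3, and neither other motif. For MMP15 only 62 of the 250 bases, with 1 of the 5 GC boxes, lie before the outermost GENCODE exon. Most of the searched bases of ADAM10 and ADAM17 likewise lie past that GENCODE start. Among 35116 RefSeq promoters, windows of the same length held the AP-1 motif in 4.20%, the GC box in 42.6% and TATAAA in 6.80%. These matches describe letters, and nothing here measured binding at them.

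Among the membrane-anchored proteases, MMP14 and MMP15 rose in shSASH1. MMP14 (ENSG00000157227, chromosome 14, 22836557 to 22849027, hg38, plus strand) is a collagenase of the cell surface that also activates the precursor of MMP2. It stood at 35.3 and 45.5 TPM in shSASH1, against 15.0 and 16.2 TPM in shControl. The lowest shSASH1 library was thus above both shControl libraries, and the means were 40.4 ± 7.23 and 15.6 ± 0.854 TPM (SD, n = 2 each), a ratio of 2.59. The log2 change was 1.31 ± 0.14 (SE), with a 95% interval of 0.93 to 1.69 and limma adjusted p = 0.00651.

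MMP15 (ENSG00000102996, chromosome 16, 58025566 to 58046901, plus strand), the closest relative of MMP14 in the membrane-type group, had 84.0 and 104 TPM in shSASH1, against 48.4 and 48.2 TPM in shControl. Again the groups did not overlap, and the means of 93.8 ± 13.9 and 48.3 ± 0.0904 TPM gave a ratio of 1.94. The log2 change was 0.94 ± 0.11 (SE), with a 95% interval of 0.63 to 1.24 and limma adjusted p = 0.00804. For both genes shSASH1 replicate 2 was the higher library, by 0.36 log2 units in MMP14 and 0.30 in MMP15. Bulk libraries cannot tell more cells that express a gene from more RNA per cell.

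The secreted MMP7 and MMP9 were not called. MMP7, or matrilysin, is a small secreted protease of epithelial cells (ENSG00000137673, chromosome 11, 102520508 to 102530753, minus strand). It had 35.9 and 68.5 TPM in shSASH1, against 34.8 and 41.7 TPM in shControl. shSASH1 replicate 1 lay between the shControl libraries and replicate 2 above both, so the groups overlapped, and the log2 change of 0.37 had a 95% interval of -0.48 to 1.22 (limma adjusted p = 0.411). One library decided this value: without shSASH1 replicate 1 the log2 change was 0.83, and without shSASH1 replicate 2 it was -0.08. CD14 was high in the same library, and its part in the MMP7 value was not tested.

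MMP9 (ENSG00000100985, chromosome 20, 46008908 to 46016561, plus strand), a gelatinase, was close to absent. It had 0.0652 and 0.0817 TPM in shSASH1, against 0.146 and 0.0624 TPM in shControl. These values rest on 1 or 2 rebuilt reads in each library, so a difference was not detectable at this depth. An antisense gene, SLC12A5-AS1, shares 18.4% of its exon bases.

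Of the 3 inhibitors, TIMP1 fell and TIMP2 rose in shSASH1, while TIMP3 was not called. TIMP1 (ENSG00000102265, chromosome X, 47582313 to 47586789, plus strand), which inhibits most secreted MMPs and is a weak inhibitor of membrane-anchored ones, had 49.0 and 66.4 TPM in shSASH1, against 111 and 116 TPM in shControl. Both shSASH1 libraries were below both shControl libraries. The means were 57.7 ± 12.3 and 114 ± 3.63 TPM (SD, n = 2 each), with a log2 change of -0.98 ± 0.15 (SE, 95% interval -1.39 to -0.57, limma adjusted p = 0.0142).

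TIMP1 moved with its chromosomal neighbours. In the 20 Mb window that holds it (40 to 60 Mb of chromosome X), 77 of 101 other tested genes were called lower and 0 higher, with a median log2 change of -0.88. Of those 101 genes, 39 changed by as much as TIMP1 or were lower still. With each gene centred on the median of its window, TIMP1 had a log2 change of -0.10 and was not called (limma adjusted p = 0.649). The 5 nearest tested genes on each side, a choice made after values were seen, all had negative changes, and 9 of these 10 were called. ARAF, which encodes a RAF kinase, had 33.7 and 31.0 TPM in shSASH1, against 80.5 and 78.5 TPM in shControl (log2 change -1.27, limma adjusted p = 0.00238). ELK1, an ETS transcription factor gene on the other side, had 39.1 and 46.1 TPM in shSASH1 and 88.8 and 92.8 TPM in shControl (log2 change -1.08, limma adjusted p = 0.00477). USP11, a deubiquitinase gene, was the one not called (log2 change -0.33, limma adjusted p = 0.206). Before TIMP1 on the chromosome the direction stayed the same. At distances of -20 to 0 Mb the 40 tested genes had a median log2 change of -0.58, with 24 called lower and 3 higher. At -50 to -20 Mb the 69 tested genes had a median of -0.68, with 42 called lower and 0 higher. Beyond TIMP1 the direction turned further along the chromosome. From 60 to 110 Mb beyond TIMP1 the 168 tested genes had a median log2 change of 0.42, with 84 called higher and 12 lower. Whether TIMP1 had a change of its own besides that of its region cannot be told here.

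**Figure D2:**
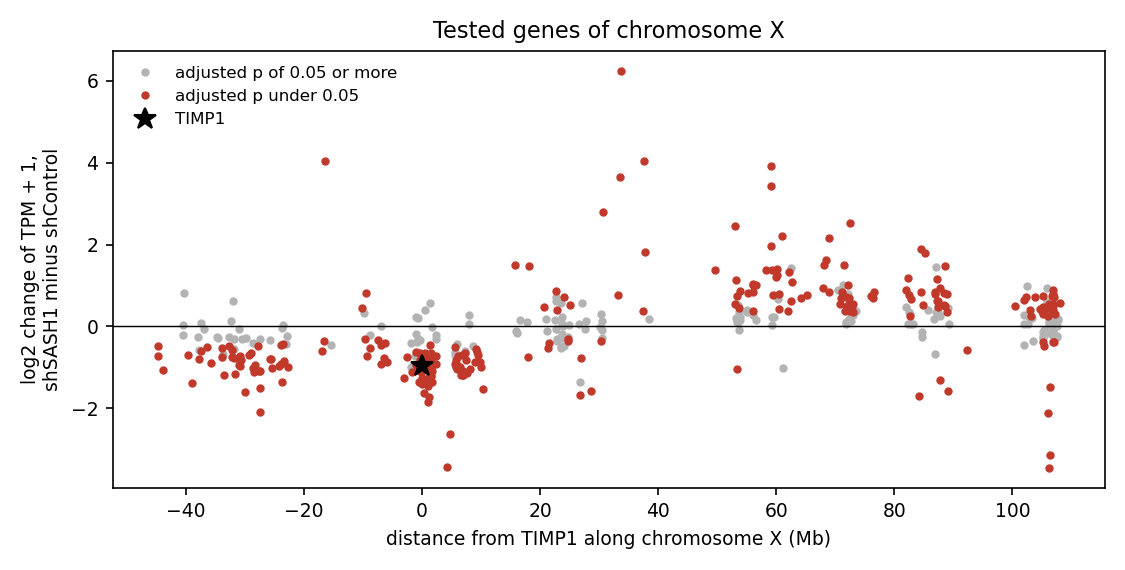
Log2 change of TPM + 1 (shSASH1 minus shControl) of tested genes on chromosome X against distance from TIMP1 in Mb, with called genes in red, other genes in grey and TIMP1 as a star. XIST was left out. TIMP1 at -0.98 sits among its neighbours, whose median is -0.88, and genes 60 to 110 Mb beyond it have a median of 0.42.

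TIMP2 (ENSG00000035862, chromosome 17, 78852977 to 78925387, minus strand), the inhibitor that also links MMP14 to the precursor of MMP2, had 43.6 and 32.3 TPM in shSASH1, against 20.6 and 21.7 TPM in shControl. The groups did not overlap, and the means were 38.0 ± 8.03 and 21.2 ± 0.725 TPM. The log2 change was 0.80 ± 0.16 (SE, 95% interval 0.38 to 1.22, limma adjusted p = 0.0244). CEP295NL on the same strand shares 3.52% of the exon bases of TIMP2 and an antisense gene a further 6.51%.

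TIMP3 (ENSG00000100234, chromosome 22, 32801701 to 32863043, plus strand), the inhibitor that binds to the matrix and acts on ADAM17 as well as on MMPs, had 19.9 and 12.6 TPM in shSASH1, against 12.0 and 9.43 TPM in shControl. The lower shSASH1 library lay just above the higher shControl library, and the log2 change of 0.53 had a 95% interval of -0.12 to 1.19 (limma adjusted p = 0.164). It too depended on the shSASH1 libraries, with a log2 change of 0.84 without replicate 2 and 0.22 without replicate 1.

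The order of levels was different in the groups. In shSASH1 libraries MMP15 was the most abundant of the 10 genes (mean 93.8 TPM), followed by TIMP1 at 57.7 TPM. In shControl libraries TIMP1 came first (mean 114 TPM), and MMP15 second at 48.3 TPM. In both groups the libraries of these first-ranked and second-ranked genes did not overlap. From TIMP1 down to TIMP2, each gene of the shSASH1 order overlapped the next. MMP7, ADAM10, ADAM17, MMP14 and TIMP2 (means 52.2 to 38.0 TPM) had no firm order. TIMP1, at 49.0 and 66.4 TPM, overlapped MMP7 and lay above both libraries of ADAM10, ADAM17, MMP14 and TIMP2. In shControl only ADAM10 and MMP7 overlapped among neighbours. TIMP3, ADAM8 and MMP9 held the last places in both groups.

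The make-up of the inhibitor transcripts differed with these levels. TIMP1 made up 43.6% and 59.7% of the summed TIMP1, TIMP2 and TIMP3 level in shSASH1, against 77.3% and 78.9% in shControl. TIMP2 made up 38.8% and 29.0% in shSASH1, against 14.3% and 14.7% in shControl. The summed inhibitor level was 112 and 111 TPM in shSASH1 and 144 and 148 TPM in shControl, and the summed level of the 4 MMPs was 155 and 218 TPM in shSASH1 and 98.3 and 106 TPM in shControl. The ratio of MMP to TIMP transcripts was therefore 1.38 and 1.96 in shSASH1, against 0.683 and 0.720 in shControl. The ratio was above 1 in both shSASH1 libraries and below 1 in both shControl libraries, though 1 has no special meaning for sums of these chosen genes. It rests in part on TIMP1, which moved with its chromosomal neighbours (log2 change -0.10 when centred on its window). The 1.96 of shSASH1 replicate 2 also holds the high MMP7 level of that library (68.5 TPM). Whether the groups differ in a ratio without TIMP1 was not tested. The ratio of MMP14 to TIMP2 was less separate, at 0.809 and 1.41 in shSASH1 and 0.728 and 0.749 in shControl. No test was run on these sums and ratios, and they concern transcripts, not protein or activity.

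**Figure D3:**
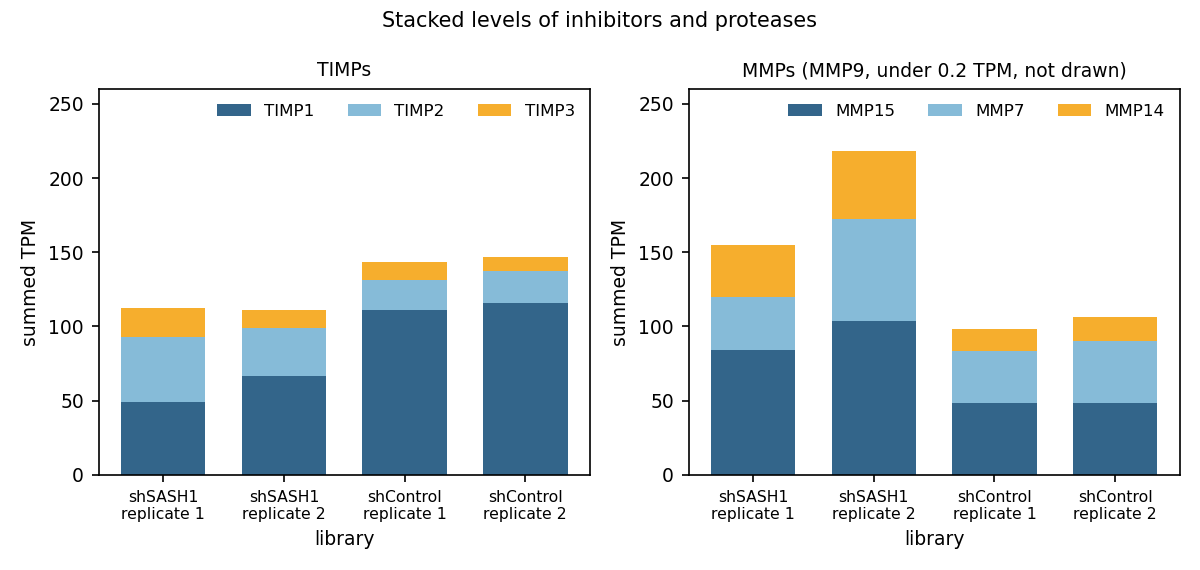
Stacked bars of TPM in each library, for TIMP1, TIMP2 and TIMP3 on the left and MMP15, MMP7 and MMP14 on the right, with the shSASH1 libraries before the shControl libraries. The inhibitor stacks reach 112 and 111 TPM in shSASH1 and 144 and 148 TPM in shControl, and the MMP stacks 155 and 218 TPM in shSASH1 and 98.3 and 106 TPM in shControl.

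Among the sheddases, ADAM17 rose in shSASH1 and ADAM10 and ADAM8 were not called. ADAM17 (ENSG00000151694, chromosome 2, 9488486 to 9556732, minus strand), the enzyme that releases TNF and several EGFR ligands, had 37.3 and 47.6 TPM in shSASH1, against 28.7 and 27.5 TPM in shControl. The groups did not overlap, and the log2 change was 0.57 ± 0.13 (SE, 95% interval 0.22 to 0.92, limma adjusted p = 0.0358). It was the weakest of the 5 calls, and it was lost without a variance trend (limma adjusted p = 0.0636). The opposite-strand gene IAH1 shares 12.3% of the exon bases of ADAM17, and it had 25.0 and 26.6 TPM in shSASH1 and 21.1 and 21.0 TPM in shControl. The use of strand is not stated in the labels, so the shared reads of ADAM17 and IAH1 cannot be told apart.

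ADAM10 (ENSG00000137845, chromosome 15, 58588807 to 58749978, minus strand), the main sheddase of Notch receptors and E-cadherin, had 43.3 and 47.5 TPM in shSASH1, against 42.4 and 40.1 TPM in shControl. Its log2 change of 0.13 had a 95% interval of -0.08 to 0.35 (limma adjusted p = 0.253), and the other tested genes of its 20 Mb window had a median of 0.12. The level of ADAM17 relative to ADAM10 was 0.861 and 1.0 in shSASH1, against 0.676 and 0.686 in shControl. ADAM8 (ENSG00000151651, chromosome 10, 133262403 to 133276868, minus strand), a protease better known from leukocytes, had 5.66 and 8.74 TPM in shSASH1, against 7.62 and 7.13 TPM in shControl. The shSASH1 libraries lay on either side of the shControl pair (log2 change -0.06, 95% interval -0.63 to 0.52, limma adjusted p = 0.860), and the direction of ADAM8 turned to 0.22 without shSASH1 replicate 1 and to 0.10 when centred on its window.

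**Figure D4:**
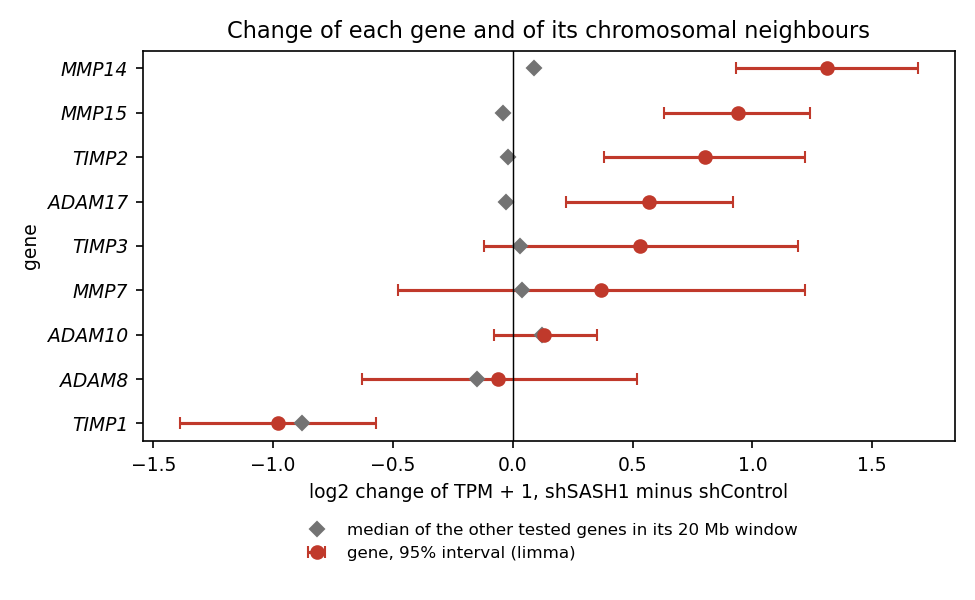
Log2 change of TPM + 1 (shSASH1 minus shControl) for the 9 tested genes, as points with 95% intervals from limma, beside grey diamonds for the median change of the other tested genes in the same 20 Mb window. The diamonds of MMP14, MMP15, TIMP2 and ADAM17 lie between -0.04 and 0.09, and that of TIMP1 lies at -0.88, inside the interval of the gene.

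For MMP14, MMP15, TIMP2 and ADAM17, unlike TIMP1, the windows had median changes of 0.09, -0.04, -0.02 and -0.03, and all 4 were still called when centred on them (limma adjusted p = 0.0104, 0.0104, 0.0273 and 0.0371). Testing all 26518 genes without a minimum level ended all 5 calls, at limma adjusted p = 0.0616 to 0.165. So did leaving out either shControl library, after which the spread comes from the shSASH1 pair alone.

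Among the 19 other MMP genes, 5 could be tested, and 3 of those reached the minimum level only through the group in which they were higher, MMP17 and MMP2 among them. Their differences are therefore given as values, and no count is read over the list. MMP17, a membrane-anchored protease with a lipid anchor, had 2.89 and 2.81 TPM in shSASH1, against 0.341 and 0.509 TPM in shControl (log2 change 1.44). MMP2, the gelatinase activated by MMP14, had 0.194 and 0.325 TPM in shSASH1, against 1.88 and 2.41 TPM in shControl (log2 change -1.32). MMP1, MMP3, MMP8, MMP12 and MMP16 were listed at 0 in every library. The first 4 of these lie with MMP7 in the MMP cluster of chromosome 11, where MMP10, MMP13 and MMP27 had at most 2 rebuilt reads in a library and MMP20 at most 1.0 TPM. MMP7 was thus the abundant transcript of that cluster in both groups.

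Of the 18 other ADAM genes, 5 could be tested. ADAM9, ADAM15 and ADAM22 were called, where 32.0% of all genes tested were, and ADAM21, which was not called, reached the minimum level only through shSASH1. ADAM9 and ADAM15, widely expressed proteases of epithelial cells, were the most abundant ADAM transcripts, above ADAM10 and ADAM17 in every library. ADAM9 had 99.8 and 96.7 TPM in shSASH1, against 53.5 and 54.9 TPM in shControl (log2 change 0.85, limma adjusted p = 0.00308). ADAM15 had 188 and 209 TPM in shSASH1, against 120 and 122 TPM in shControl (log2 change 0.71, limma adjusted p = 0.00568), or a log2 change of 0.37 when centred on its window. ADAM22, a neural ADAM without protease activity, fell to 1.62 and 1.44 TPM in shSASH1, against 4.84 and 5.12 TPM in shControl (log2 change -1.24, limma adjusted p = 0.00945).

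The secreted ADAMTS proteases were mostly low, and 4 of 19 could be tested. Of these, 2 reached the minimum level only through 1 group, ADAMTS7 through shControl and ADAMTS4 through shSASH1, so no count is read over the list. ADAMTS17 had 3.10 and 2.27 TPM in shSASH1, against 8.96 and 6.82 TPM in shControl (log2 change -1.27, limma adjusted p = 0.0153). ADAMTS7 had 0.353 and 0.886 TPM in shSASH1, against 2.57 and 2.27 TPM in shControl (log2 change -1.10), which is given as values only. Its call was lost with a pseudocount of 0.1 (limma adjusted p = 0.0524) and with a block for replicate number (limma adjusted p = 0.0572).

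Of 6 genes listed as other inhibitors or as SPOCK proteoglycans, 3 could be tested, with 1 higher and 1 lower, where 32.0% of all genes tested were called. The lower gene was SPOCK2, and its fall is not read as that of an inhibitor. RECK, a membrane-anchored inhibitor of MMP2, MMP9 and MMP14, rose to 8.62 and 11.8 TPM in shSASH1, against 3.0 and 2.62 TPM in shControl (log2 change 1.54, limma adjusted p = 0.00838). Its neighbours on chromosome 9 had a median log2 change of 1.07, and when centred on them RECK had a log2 change of 0.47 and was not called (limma adjusted p = 0.156). The secreted proteoglycan gene SPOCK2 fell to 6.39 and 6.28 TPM in shSASH1, against 19.3 and 20.6 TPM in shControl (log2 change -1.51, limma adjusted p = 0.00299). The proprotein convertases, which include FURIN, the enzyme that cuts the precursors of membrane-anchored MMPs and ADAMs, had 3 tested genes and 0 calls in limma, 0 at an unadjusted p under 0.05 and 0 with limma-voom.

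The 9 genes known to carry ADAM10 and ADAM17 to the cell surface were all tested, and they split, with 3 higher and 3 lower (median log2 change -0.14), where 18.8% of all genes tested were called higher and 13.3% lower. Most are tetraspanins of the group that binds ADAM10 and steers it to different substrates. TSPAN5 had 13.9 and 13.5 TPM in shSASH1, against 7.43 and 6.48 TPM in shControl (log2 change 0.89, limma adjusted p = 0.00937). TSPAN15, which directs ADAM10 to cadherins, had 89.2 and 102 TPM in shSASH1, against 62.5 and 66.5 TPM in shControl (log2 change 0.56, limma adjusted p = 0.0145). TSPAN33 had 23.4 and 26.0 TPM in shSASH1, against 36.3 and 34.9 TPM in shControl (log2 change -0.51, limma adjusted p = 0.0168). TSPAN10 also fell (log2 change -0.71, limma adjusted p = 0.0353; adjusted p = 0.0519 when centred on its window), and TSPAN17, at 91.8 and 91.8 TPM in shSASH1 and 100 and 102 TPM in shControl, was not called, though it was lower with quantile normalization (limma adjusted p = 0.0354) and with limma-voom (adjusted p = 0.0451). Of the ADAM17 partners, the iRhom gene RHBDF2 rose (log2 change 0.27, limma adjusted p = 0.0436), a call lost with median-of-ratios scaling, quantile normalization and limma-voom (log2 change 0.21, 0.16 and 0.20), with a replicate block (limma adjusted p = 0.105) and without a variance trend (limma adjusted p = 0.0725). FRMD8, which stabilises iRhoms, fell (log2 change -0.32, limma adjusted p = 0.0176; adjusted p = 0.0529 without a variance trend).

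**Figure D5:**
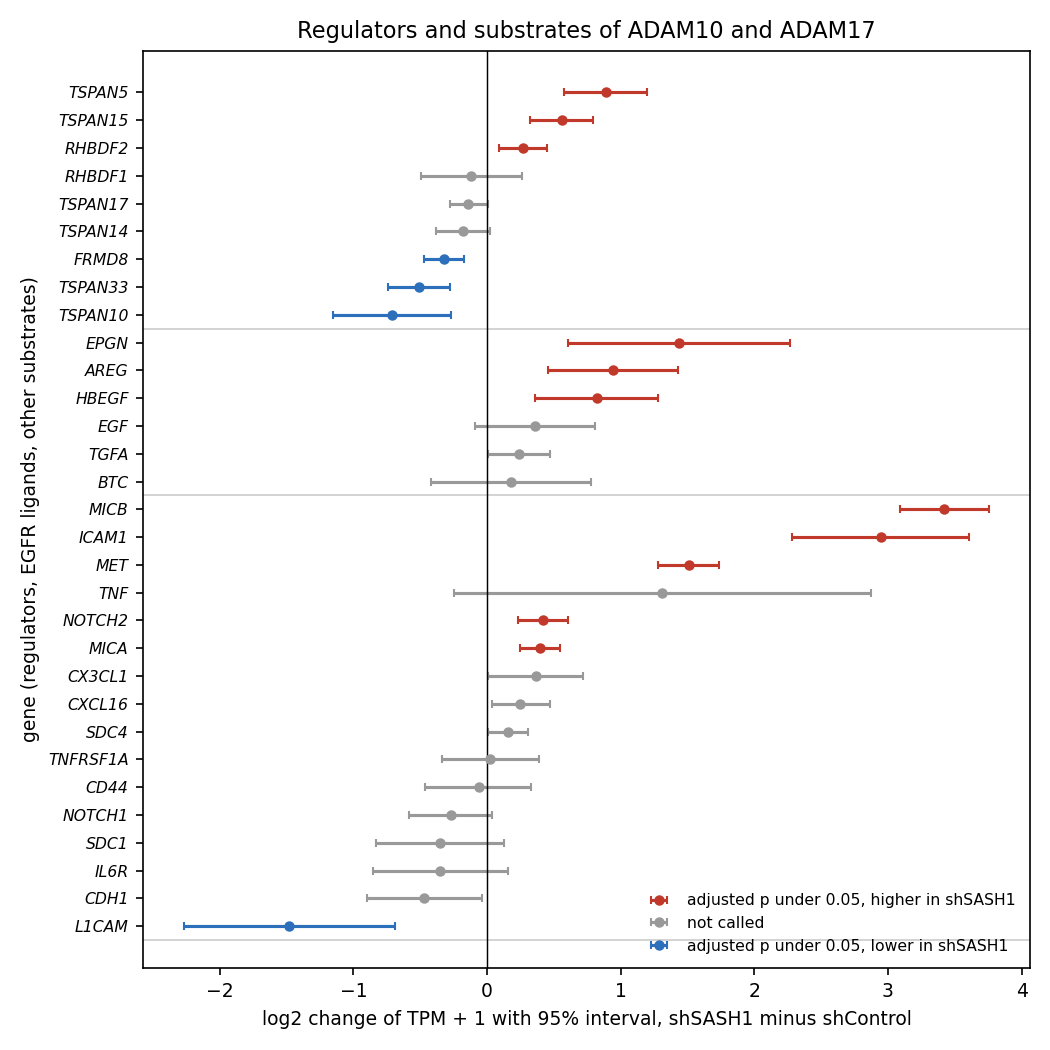
Log2 change of TPM + 1 (shSASH1 minus shControl) with 95% intervals from limma for tested regulators of ADAM10 and ADAM17 (top), shed EGFR ligands (middle) and other shed substrates (bottom), with red for called higher, blue for called lower and grey for not called. The regulators split into 3 higher and 3 lower, and the largest positive value among the substrates is that of MICB at 3.42. L1CAM, at -1.48, reached the minimum level only through shControl.

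Among genes whose proteins are shed by ADAM10 or ADAM17, 3 of 6 tested EGFR ligands rose and 0 fell, where 18.8% of all genes tested were called higher and 13.3% lower. Their median log2 change was 0.59, against 0.06 over all genes tested (4 of 6 had an unadjusted limma p under 0.05 and limma-voom called 3). EPGN had 3.44 and 6.74 TPM in shSASH1, against 1.13 and 1.20 TPM in shControl (log2 change 1.44, limma adjusted p = 0.0302). AREG had 8.35 and 6.16 TPM in shSASH1, against 3.32 and 3.19 TPM in shControl (log2 change 0.94, limma adjusted p = 0.0233). HBEGF had 9.48 and 12.0 TPM in shSASH1, against 6.22 and 5.07 TPM in shControl (log2 change 0.82, limma adjusted p = 0.0278). Centred on their windows, EPGN and AREG, which lie close together on chromosome 4, were not called (limma adjusted p = 0.0610 and 0.0675), nor was HBEGF without shSASH1 replicate 2 (0.0541). Without a minimum level none of the 3 was called (limma adjusted p = 0.155 for EPGN, 0.118 for AREG and 0.131 for HBEGF).

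Of 16 other tested substrates 5 were called higher and 1 lower, a share near the 32.0% of all genes tested, so the count is no result about the substrates. MICB, a ligand of the immune receptor NKG2D, had 144 and 181 TPM in shSASH1, against 14.3 and 14.0 TPM in shControl (log2 change 3.42, limma adjusted p = 0.00156). Its near copy MICA had 93.7 and 95.9 TPM in shSASH1 and 71.5 and 71.6 TPM in shControl (log2 change 0.40, limma adjusted p = 0.0107; adjusted p = 0.0698 when centred), and reads can be shared between them. The adhesion molecule ICAM1 had a log2 change of 2.95 (limma adjusted p = 0.00420), and an antisense gene shares 22.0% of its exon bases. The hepatocyte growth factor receptor MET had 93.1 and 91.1 TPM in shSASH1, against 33.9 and 29.5 TPM in shControl (log2 change 1.51, limma adjusted p = 0.00247). NOTCH2 rose (log2 change 0.42, limma adjusted p = 0.0174) in shSASH1. The neural adhesion molecule L1CAM had 0.650 and 0.0525 TPM in shSASH1, against 2.81 and 2.54 TPM in shControl (log2 change -1.48). It reached the minimum level only through shControl, so its difference is given as values. Its call was lost with a pseudocount of 0.1 (limma adjusted p = 0.0611). The abundant substrates CD44 at 657 and 492 TPM in shSASH1 and 612 and 577 TPM in shControl, SDC1 at 307 and 215 TPM in shSASH1 and 316 and 340 TPM in shControl, and CDH1 at 66.5 and 48.2 TPM in shSASH1 and 76.9 and 80.4 TPM in shControl were not called (limma adjusted p = 0.766, 0.198 and 0.0913). CDH1 was called lower with limma-voom (adjusted p = 0.0354). Its log2 change was -0.70 without shSASH1 replicate 1 and -0.24 without replicate 2. Without shSASH1 replicate 1 the log2 change was -0.61 for SDC1 and -0.27 for CD44. SDC4, CX3CL1, CXCL16 and TNFRSF1A, with log2 changes of 0.16, 0.37, 0.25 and 0.02, were not called either. Over all alternative fits the log2 change ranged from 0.05 to 0.19 for SDC4 and from 0.19 to 0.55 for CX3CL1. It ranged from 0.15 to 0.34 for CXCL16 and from -0.17 to 0.21 for TNFRSF1A. Without a minimum level, the calls of ADAMTS7, ADAMTS17, RECK, TSPAN10, TSPAN15, TSPAN33, NOTCH2, ICAM1 and L1CAM were also lost (limma adjusted p = 0.0517 to 0.142).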

How the data were processed

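RNA was extracted with TRIzol and libraries were made with an NEBNext Ultra kit, per the labels' protocols. The authors deposited TPM per Ensembl gene and library. The submitters' processing notes list STAR, DESeq2 and hg38 without versions or roles. Read counter, annotation, gene lengths and strandedness: not given in the sources used here. All 26518 identifiers were found in GENCODE release 29 (hg38), the source of symbols and coordinates.

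Groups followed the sample titles. limma 3.58.1 in R 4.3.3 was fitted to log2(TPM + 1) for genes whose mean reached 1 TPM, with a variance trend and no replicate block, two-sided. Reads were rebuilt as TPM times exon-union length scaled in each library so that low values became whole. From 88.5% to 89.1% of values up to 20 reads came within 0.05 of a whole number. Replicates differed on rebuilt reads with a chi-square per degree of freedom of 25.8 in shSASH1 and 2.26 in shControl. Each library was counted as its own sample, though this spread cannot show that the libraries came from separate cultures. The fit was tested on simulated data for shSASH1 against shControl (5 sets, 200 genes changed in each, on average 14207.6 genes tested). It recovered 94.4% of changes of 1 log2 unit and 95.6% of changes of 2 log2 units, and 4.11% of calls were false. The simulation used equal spread in both groups and the same spread for all genes of a given level. In the data the spread varied between genes (limma prior degrees of freedom 2.54), and 32.0% of genes tested were called. These simulated shares therefore do not give the power or the false calls of the fit to the data. Window medians covered 20 Mb with more than 20 tested genes and left out the gene itself.

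The genes and lists were chosen with earlier results of these data known. The text names the 10 genes, SASH1, up to 6 called genes per list by absolute log2 change, and list genes averaging 50 TPM or more. FURIN, CD14 and other markers, MMPs listed at 0 and the neighbours of TIMP1 were named besides.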

Additional observations from a re-analysis of the deposited data

How the results depend on the processing

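Of the 5 called metalloproteinase, ADAM and TIMP genes, 5 were called with a pseudocount of 0.1, a minimum of 5 TPM, median-of-ratios scaling, quantile normalization, a replicate block or limma-voom on rebuilt reads, 4 without a variance trend and 4 with genes centred on 20 Mb windows. Without a minimum level 0 were called by limma (5 had an unadjusted p under 0.05, and limma-voom at the minimum level called 5), and 2217 of 26518 genes in all, against 4630 of 14458. More genes were tested there, and the reason for the fewer calls was not tested. Leaving out each library in turn gave 0 to 6 calls among the 10 genes, 0 to 36 among the 51 tested genes of the other lists (24 with all libraries; 7 of the 51 reached the minimum level only through 1 group) and 0 to 7728 over all genes. The 0 came without either shControl library, where the spread comes from the shSASH1 pair alone and the lone shControl library is assumed to vary like it. Without 1 shSASH1 library the spread comes from the shControl pair alone, which was the closer pair (median SD 0.0507 log2 units, against 0.126 in shSASH1). Calls gained in those fits are therefore not read as results.

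Directions turned in genes that were not called. Leaving out each library in turn, the log2 change ranged from -0.08 to 0.83 for MMP7, from -0.33 to 0.22 for ADAM8, from -0.27 to 0.14 for CD44 and from -0.17 to 0.21 for TNFRSF1A, with both ends of each range set by the shSASH1 libraries. Centred on windows, ADAM8 had 0.10, TSPAN17 0.13, CD44 0.12 and TNFRSF1A -0.10. TNFRSF1A had -0.04 with median-of-ratios scaling, -0.09 with quantile normalization and -0.06 with limma-voom.

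The replicate numbers gave no sign of pairing, since the deviations of same-numbered libraries correlated at -0.0322 over 14458 genes. With a replicate block 3929 genes were called. Precision is limited by 2 libraries per group, and for MMP9 by 1 or 2 reads in a library.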
